A study of Homo sapiens with 2 samples.

Results

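Dense clusters of distal open chromatin in CAMA-1, an estrogen receptor-positive luminal breast cancer cell line, were selected on the positions and widths of the open regions themselves. Chromatin accessibility was measured by ATAC-seq, in which the Tn5 transposase cuts and tags open DNA, in 2 biological replicates of 50000 cells each. The cells were grown in DMEM with fetal bovine serum and received no treatment, so both replicates belong to 1 group and nothing was compared between conditions. CAMA-1 is a single established line kept in culture, and the values describe this line alone. The authors called peaks in each replicate separately, and an open region was counted where peaks of both replicates overlapped by at least 1 bp. Of 209570 such regions on chromosomes 1 to 22 (hg38), 140803 had a midpoint more than 3 kb from any annotated transcription start site (TSS) in GENCODE release 44 and are called distal here. Distal regions whose edges lay at most 5 kb apart were linked into chains, which gave 78783 chains, and the chains were ranked by the summed width of their regions. The 500 chains at the head of this order are the clusters described here, and they held 6353 of the distal regions.

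Distal open regions mark enhancers and other regulatory elements, DNA that transcription factors occupy and that can act on promoters at a distance. Neighbouring enhancers can form clusters (stretch enhancers or super-enhancers), which are often found near genes that define a cell's identity or drive its growth. In luminal breast cells, the estrogen receptor works together with FOXA1, GATA3 and AP-2 factors at such elements, while CTCF is best known for binding at insulators and at the anchors of chromatin loops. Open chromatin alone does not tell an active enhancer from a poised one, and no histone mark was analysed here.

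The clusters were scarce but large. They made up 0.635% of all chains and 4.51% of the distal regions, and they held 5.18 of the 63.8 Mb of distal open chromatin, or 8.12%. The number of regions in a cluster ran from 1 to 39 with a median of 12. In all, 365 clusters held at least 10 regions, 54 held at least 20, and 5 consisted of a single very wide region. The summed width ran from 6.81 to 46.9 kb (median 8.99 kb) and the span from the first to the last base from 6.91 to 79.5 kb (median 23.7 kb). In the median cluster, 41.2% of the span was open. The gaps between neighbouring regions had a median of 839 bp, far below the 5 kb that the linking allowed. These sizes describe what the ranking chose and are no finding by themselves. The limit at rank 500 fell in a smooth curve, with no step. The last 3 clusters inside it, nearest to GADD45G, KCNA10 and PRR5, had summed widths of 6821, 6818 and 6813 bp, and the first 3 outside it, nearest to SLC6A17, CYB5A and TACC2, had 6808, 6806 and 6803 bp.

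**Figure D1:**
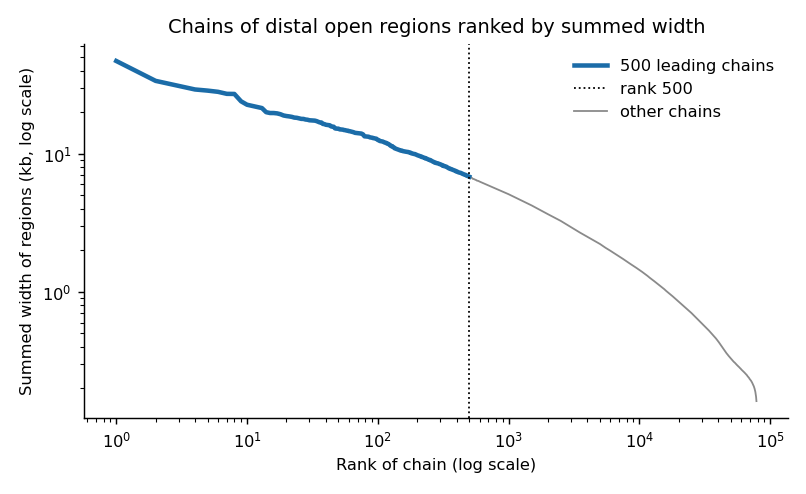
Summed width of the regions in a chain (kb, log scale) against the rank of the chain (log scale), with the 500 clusters in blue, the other chains in grey and a dotted line at rank 500. The curve falls from 46.9 kb at the head to 6.81 kb at rank 500 without a break at the limit.

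The DNA inside 4 of the leading clusters is shown as hg38 forward strand, 5′ to 3′, in windows of 200 bp at the midpoint of the strongest region of at most 1 kb that had no exon of a protein-coding gene in the window. They were picked to show what an open element within a cluster looks like with and without a match to a searched motif, and capitals mark the match. The SDC1 window (chr2:20182575-20182774) lies outside protein-coding genes, 6869 bp from the nearest TSS, and holds an AP-1 match. The IER5 window (chr1:181142466-181142665) lies outside protein-coding genes, 31919 bp from the nearest TSS, and holds a FOX match. The GSE1 window (chr16:85641806-85642005) lies in an intron of GSE1, 12527 bp from the nearest TSS, and holds an AP-2 match. The CCND1 window (chr11:69540098-69540297) lies outside protein-coding genes, 54586 bp from the nearest TSS, and holds no match to any motif searched.
SDC1 cluster: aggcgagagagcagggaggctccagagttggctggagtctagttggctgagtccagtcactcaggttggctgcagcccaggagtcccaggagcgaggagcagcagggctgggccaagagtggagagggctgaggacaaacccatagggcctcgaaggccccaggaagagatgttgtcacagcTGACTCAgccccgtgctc
IER5 cluster: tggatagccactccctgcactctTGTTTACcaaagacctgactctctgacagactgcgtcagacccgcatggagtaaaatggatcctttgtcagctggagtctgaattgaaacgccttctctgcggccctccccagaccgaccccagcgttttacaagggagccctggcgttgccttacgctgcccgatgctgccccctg
GSE1 cluster: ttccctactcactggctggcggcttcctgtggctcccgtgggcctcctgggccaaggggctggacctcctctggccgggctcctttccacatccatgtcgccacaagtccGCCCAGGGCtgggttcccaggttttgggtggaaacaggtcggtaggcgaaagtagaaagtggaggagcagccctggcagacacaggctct
CCND1 cluster: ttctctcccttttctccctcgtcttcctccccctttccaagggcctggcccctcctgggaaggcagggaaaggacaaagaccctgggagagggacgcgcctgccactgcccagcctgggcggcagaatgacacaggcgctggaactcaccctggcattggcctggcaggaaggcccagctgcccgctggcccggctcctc
The regions behind these windows were strongly open in both replicates. Fold enrichment, the height of a peak's highest point over background, was 112 in replicate 1 and 120 in replicate 2 for SDC1, 91.8 and 86.9 for IER5, 39.8 and 37.6 for GSE1, and 62.8 and 63.7 for CCND1. The GC content of the windows was 62.5% for SDC1, 57% for IER5, 63.5% for GSE1 and 66.5% for CCND1, each above the median of the regions in the clusters given further on.

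Within the shared regions, most clusters had nearly the same extent in both replicates. The median summed width of a replicate's own peaks in a cluster was 8.22 kb in replicate 1 and 8.36 kb in replicate 2 (mean 8.29 ± 0.0944 kb, SD, n = 2). In 435 of the 500 clusters the summed widths of the replicates lay within 10% of each other, and 277 clusters were the wider in replicate 2. Across clusters, Pearson's r between the replicates was 0.988 for the summed width and 0.987 for the fold enrichment of the strongest peak, and Spearman's rho was 0.953 and 0.982, as a description of 500 clusters from the same 2 libraries. The strongest peak of a cluster had a median fold enrichment of 92.4 in replicate 1 (range 12.7 to 402) and 93.5 in replicate 2 (range 11.3 to 389). Openness was uneven within a cluster. Among the 476 clusters of at least 5 regions, the strongest region stood at a median of 7.28 times the cluster's median region in replicate 1 and 7.38 times in replicate 2. A strongest region lies above the median by its choice, and no like ratio was computed for other chains. The same region was the strongest in both replicates in 437 of these clusters. Within the spans of the clusters, 7.61% of the peaks of replicate 1 and 8.42% of those of replicate 2 had no partner in the other replicate, against 9.92% and 15.3% of all autosomal peaks. The clusters were chosen for the width of regions that both replicates share, so a lower share here was favoured by the selection and is no separate measure of agreement. The summed widths took in only peaks within shared regions, so their closeness between replicates was favoured by the selection too.

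The cluster at SLC7A5 on chromosome 16, which encodes a transporter of large neutral amino acids, came first with 46893 bp in only 3 regions. One of them, of 43448 bp, ran over the whole gene, its TSS included, and counted as distal because its midpoint lay 11196 bp from any TSS. Of the 500 clusters, 11 had such a region over a TSS, those of CELSR2 and KRT8 among them, while 0 of the other distal regions did. This contrast was nearly fixed by the ranking. Only a region over 6 kb wide can cover a TSS with its midpoint more than 3 kb away, and a chain wider than 6813 bp is always among the 500.

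The second cluster lay on chromosome 11 (chr11:69488621-69546915), 94241 bp from the TSS of CCND1, which encodes cyclin D1, the partner of CDK4 and CDK6 in entry into S phase. It held 33 regions over 58295 bp, with 31315 bp of peaks in replicate 1 and 31047 bp in replicate 2. Its widest region, of 9433 bp, was also its strongest, with a fold enrichment of 273 in replicate 1 and 263 in replicate 2. It lay wholly outside the bodies of protein-coding genes and over the long noncoding RNA gene LINC01488. A further cluster of 20 regions, at rank 81, lay 4025 bp from the TSS of CCND1.

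Rank 3 was a cluster of 13 regions and 30951 bp at SDC1, which encodes the heparan sulfate proteoglycan syndecan-1. IER5, an immediate early gene, had a cluster of 33 regions and 28619 bp that began inside the gene and ran downstream, and EZR, which encodes the linker of membrane and actin ezrin, had 31 regions and 27125 bp. Clusters lay over the bodies of WNT7B, which encodes a secreted Wnt ligand (31 regions, 23948 bp), and PIEZO1, which encodes a mechanosensitive ion channel (15 regions, 21400 bp). The cluster with most regions was that of BCAR3, a gene named for resistance to antiestrogens, with 39 regions over 79507 bp. The potassium channel genes KCNK5 and KCNK17, neighbours on chromosome 6, had clusters of 28 and 27 regions. SPDEF, which encodes an ETS-family factor of luminal epithelium, had a cluster of 15 regions and 22619 bp that also touched the body of PACSIN1. QSOX1, which encodes a sulfhydryl oxidase, had 16 regions and 19314 bp. The remaining leading clusters were nearest to MYEOV (30 regions), CA12 (22), IGFBP4 (11) and the gene ENSG00000255872 (27), the last of them also over the body of SHB. Among these 20 clusters the replicates stood farthest apart for IER5, with 27403 bp in replicate 1 and 23544 bp in replicate 2, and for MYEOV, with 18164 and 14443 bp.

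**Figure D2:**
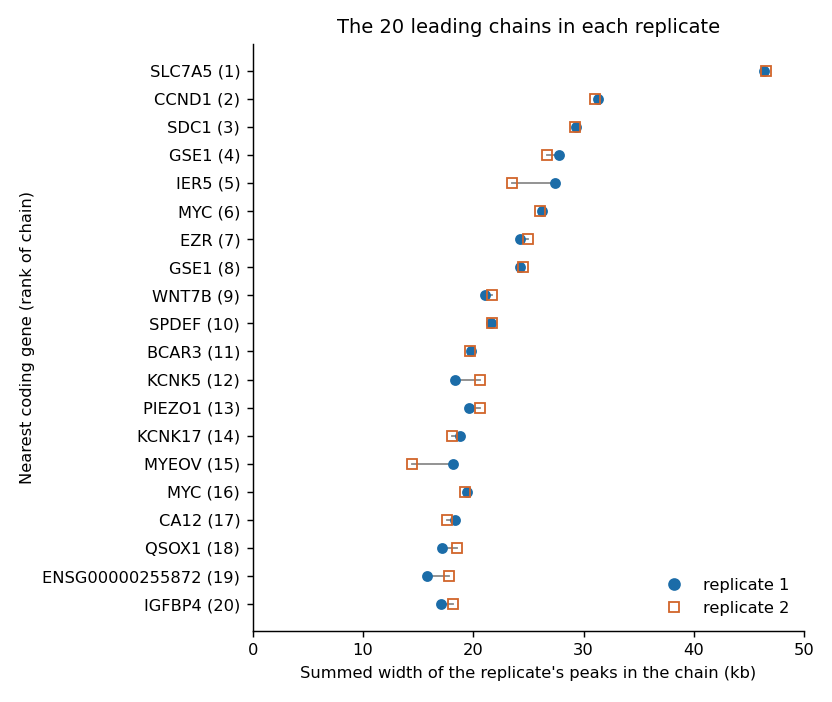
Summed width of the peaks (kb) that replicate 1 (filled circles) and replicate 2 (open squares) each placed in the 20 leading clusters, named by the nearest protein-coding gene with the rank in parentheses. The symbols nearly coincide for most clusters and stand farthest apart for IER5 and MYEOV.

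The highest peaks were not confined to the widest clusters. The highest peak of any cluster belonged to one of rank 64 on chromosome 11, with a fold enrichment of 402 in replicate 1 and 389 in replicate 2. It lay 12238 bp from the TSS of SMIM38 and over the body of TPCN2. QSOX1 followed with 327 and 334, then a single region of 9833 bp over a TSS at CELSR2 with 278 and 284, the CCND1 cluster with 273 and 263, and a cluster of 7 regions at SPINT1, which encodes an inhibitor of serine proteases, with 268 and 255. At the other end, the GREB1 cluster of rank 44 had 15740 bp of open chromatin but a highest fold enrichment of only 18.2 in replicate 1 and 11.3 in replicate 2.

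**Figure D3:**
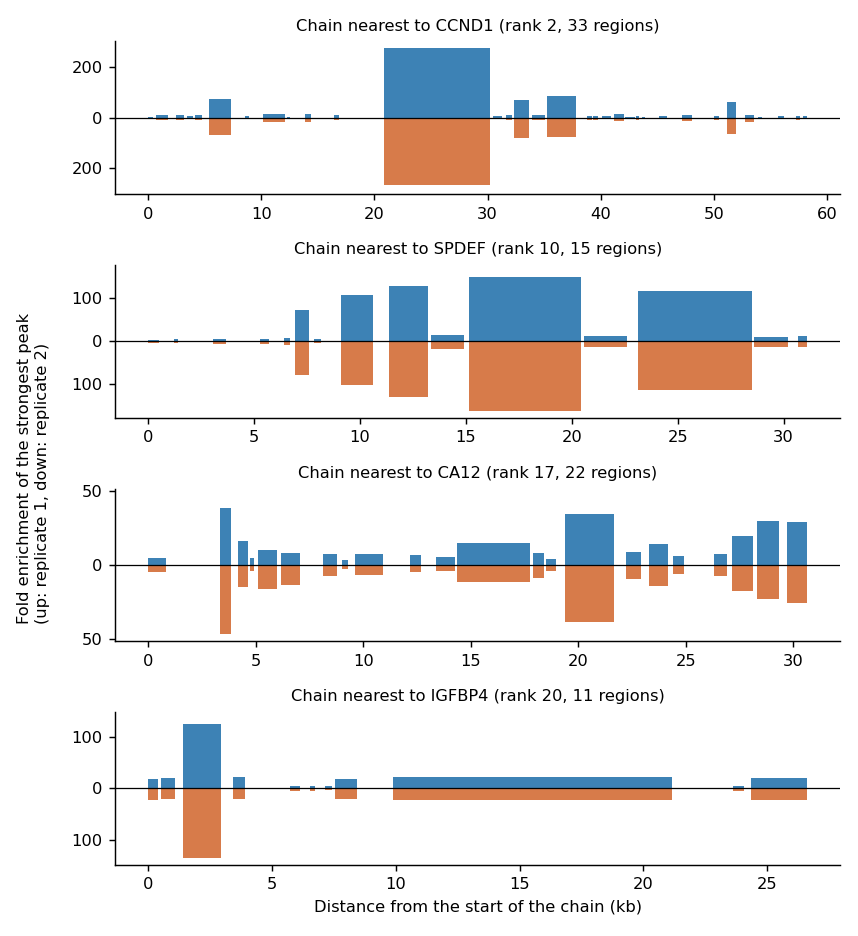
Fold enrichment of the strongest peak in each region, upwards for replicate 1 (blue) and downwards for replicate 2 (orange), against the distance from the start of the cluster (kb) for the clusters at CCND1, SPDEF, CA12 and IGFBP4, each bar as wide as its region. The replicates mirror each other, and a few regions, not always the widest, stand over many weak ones, as in the CCND1 cluster, where one region reaches 273 and 263.

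Regions in the clusters were wider than other distal regions, as the ranking required, with a median of 528 bp against 336 bp. Their median fold enrichment was 10.4 in both replicates, against 8.97 in replicate 1 and 9.51 in replicate 2 for the others, a ratio of 1.12 ± 0.0430 (SD, n = 2). This order turned with width. Among regions of at most 500 bp, the 2994 in clusters had medians of 6.21 and 6.19 against 7.36 and 7.74 for the 100724 elsewhere, a ratio of 0.822 ± 0.0309 (SD, n = 2). Since width and height come from the same peaks, no test was made. Against the other distal regions within 1 Mb, the median region of a cluster was the stronger in 348 clusters in replicate 1, in 338 in replicate 2 and in 318 in both, and the median ratio was 1.29 and 1.24. This local comparison took regions of all widths, so the selection for width bears on it as well, and it is a description only. Regions in clusters were richer in GC, with a median of 52.1% against 47.4%, and held 1.37 CpG per 100 bp against 0.930. By bases, 53.0% lay in introns of protein-coding genes, 4.67% in their exons and 42.4% outside genes of this kind, against 46.2%, 3.70% and 50.1% of the bases of other distal regions.

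The positions of the clusters relative to genes were counted without a like count for other chains. The body of a protein-coding gene was touched by 334 clusters, and 45 of the other 166 lay over a long noncoding RNA gene. A protein-coding TSS lay within 10 kb of 311 clusters and within 100 kb of 468, which left 32 farther away. Region by region, the clusters were no closer to genes, since the midpoints had a median distance of 15.3 kb to the nearest TSS of any gene, against 13.3 kb for other distal regions. In all, 408 protein-coding genes were nearest to at least 1 cluster, or 2.13% of the 19111 on the autosomes. Most of them, 349, had 1 cluster, 42 had 2, 9 had 3 and the rest had 4 to 7. The promoters of the 408 genes were open more often than others. An open region of both replicates lay within 1 kb of a TSS for 397 of them (97.3%, 95% Wilson interval 95.2 to 98.5%), against 80.2% (79.6 to 80.8%) of the other autosomal protein-coding genes and 80.6% of all. The strongest such peak had a median fold enrichment of 79.8 in replicate 1 and 81.6 in replicate 2 for these genes, against 51.8 and 53.5 for the others. No like count was made for genes nearest to other chains, so whether open promoters are particular to the genes of the clusters was not tested. Being nearest does not show that a cluster acts on a gene.

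MYC, the growth-promoting transcription factor gene on chromosome 8, was nearest to most clusters. Its 7 clusters held 100 regions and 99444 bp, of which the first began inside the gene and the others lay downstream, between 2272 and 436428 bp from the nearest of its TSSs. The widest of them, at rank 6, held 22 regions with a highest fold enrichment of 231 in replicate 1 and 236 in replicate 2. The next, at rank 16, packed 19699 bp into 5 regions with 257 and 264, and both lay over the noncoding gene PVT1. GSE1 on chromosome 16 had 6 clusters within its own body, with 99 regions and 109093 bp in all, of which 4 ranked among the first 50. TSNARE1 also had 6 (70 regions) and TRPS1, which encodes a GATA-type repressor of luminal cells, had 5 (85 regions). BCAR3, C8orf90, OPA1 and PITX1 were nearest to 4 each. The clusters of OPA1 lay between 89384 and 202697 bp from its TSS, so here the nearest gene was a distant one.

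Genes that estrogen induces lay near clusters more often than the background of 2.13% for all autosomal protein-coding genes. This list and the others below were chosen with earlier results of these data known, so the excess is a description and not independent support. Of 20 such genes, 10 were nearest to a cluster (50%), and the same 10 were those with a TSS within 100 kb of one, against 6.77% of all such genes. Beside CCND1 these were GREB1, a cofactor of the estrogen receptor, with clusters at ranks 44 and 220, CA12, a carbonic anhydrase, at rank 17, IGFBP4, which binds insulin-like growth factors, at rank 20, RARA, a retinoic acid receptor, at rank 138, and KRT19, a luminal keratin, at rank 175. STC2, a secreted glycoprotein hormone, had rank 187, CELSR2, an adhesion receptor, ranks 197 and 442, SIAH2, a ubiquitin ligase, rank 389, and IGF1R, a growth factor receptor, rank 399. The CA12 cluster lay within the gene and held 18366 bp of peaks in replicate 1 and 17618 bp in replicate 2, with a highest fold enrichment of 38.4 and 47.1. That of IGFBP4 held 17073 and 18113 bp with 125 and 134. The count depended on the ranking, since 6 of the 20 genes were nearest to a cluster when chains were ranked by the number of regions and 5 when they were ranked by span.

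Of 24 autosomal genes for luminal transcription factors, 7 were nearest to a cluster (29.2%), and the same 7 lay within 100 kb of one. GATA3, which encodes a zinc finger factor of luminal cells, had a cluster of 14 regions over the gene with 9461 bp of peaks in replicate 1 and 9110 bp in replicate 2. TFAP2A, which encodes an AP-2 factor, had one of 11 regions 76831 bp from its TSS. Clusters at SPDEF numbered 2, at the grainyhead factor gene GRHL2 3 and at TRPS1 5, and RARA belonged to this group too. ELF3, an epithelial ETS factor gene, had one with a highest fold enrichment of 223 in replicate 1 and 227 in replicate 2. Other defining factors of these cells had none nearby. ESR1, the estrogen receptor gene, lay 6823636 bp from the closest cluster and FOXA1 2237839 bp, although both promoters were open, with fold enrichments of 31.3 and 32.5 for ESR1 and 84.9 and 90.2 for FOXA1.

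Among 20 genes of epithelial adhesion and keratins, 4 were nearest to a cluster (20%) and 8 lay within 100 kb of one (40%). The 4 were the luminal keratin genes KRT8, KRT18 and KRT19 and CDH1, which encodes E-cadherin. When chains were ranked by the number of regions, 1 gene of this list was nearest to a cluster, and likewise 1 when they were ranked by span. Of 18 AP-1 and stress-responsive genes, 2 were nearest, the phosphatase gene DUSP1 at rank 87 and the early response gene IER3 at rank 101, and 7 lay within 100 kb (38.9%). Of 20 mesenchymal and basal genes, 1 was nearest, SNAI1, which encodes a repressor of E-cadherin, and 3 lay within 100 kb (15%). Of 19 autosomal blood genes, 0 were nearest and 0 lay within 100 kb, which for so few genes is near the background of 2.13% and 6.77%. The median distance from a gene's TSS to the closest cluster was 137 kb for estrogen-induced genes, 409 kb for AP-1 and stress genes, 410 kb for epithelial genes, 664 kb for luminal factors, 1406 kb for mesenchymal and basal genes and 3188 kb for blood genes, against 2298 kb for all. These lists are short, and the counts are descriptions without a test. At the promoters of marker genes, 10 of 10 luminal epithelial markers were open in both replicates, with a median fold enrichment of 87.1 and 88.1, but 80.6% of all autosomal protein-coding genes were open too, so the count says little about the cell type. With closed promoters counted as 0, 5 of 10 blood markers were open, with a median of 3.45 and 3.10, and of 10 fibroblast and mesenchymal markers 9, with a median of 14.4 and 15.7.

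Clusters were unevenly spread over the chromosomes. Chromosome 8 held 60 of them (12%) but 5.91% of the distal regions, a ratio of 2.03, and chromosomes 22, 11, 16 and 6 had ratios of 1.82, 1.75, 1.49 and 1.42. Chromosomes 21, 13 and 4 were at the low end with 0.182, 0.259 and 0.404. Over the 22 chromosomes, Spearman's rho between this ratio and the median fold enrichment of the other distal regions was 0.160 in replicate 1 and −0.213 in replicate 2, as a description. Each of the 968 distinct fold enrichment values in replicate 1 and the 1007 in replicate 2 came with a single −log10 p. The background behind them was therefore likely the same along the whole genome and not set locally, although the settings were not given. The authors reported copy-number aberrations in CAMA-1 from other data. DNA copy number was not analysed here, and its part in the counts by chromosome and in the fold enrichments given above was not tested.

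**Figure D4:**
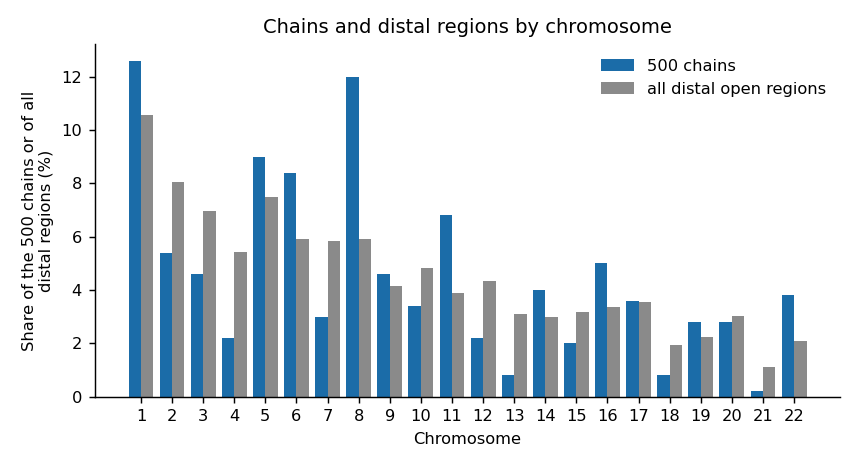
Share (%) of the 500 clusters (blue bars) and of all distal open regions (grey bars) on each of the chromosomes 1 to 22. The blue bar of chromosome 8 reaches 12% over a grey bar of 5.91%, and chromosomes 4, 13 and 21 show the opposite order.

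The distances between clusters were also counted, without a like count for other chains. Another cluster lay within 1 Mb of 357 of the 500. A gap over 5 kb, or regions near a TSS left out, can split one locus into several clusters, as for those nearest to MYC or GSE1. Linked at this distance, the clusters fell into 241 groups, of which 143 were lone clusters and 29 held at least 4, with 201 clusters in all. The largest group spread over 4.61 Mb at the end of the long arm of chromosome 8 (chr8:139672132-144280546), with 22 clusters and 309 regions from KCNK9 to SCX. A group of 16 clusters with 280 regions covered 2.26 Mb of chromosome 11 (chr11:68136249-70394634) from CHKA through SMIM38, MYEOV and CCND1 to CTTN, so the clusters of ranks 2, 15, 64 and 81 were neighbours. A group of 14 clusters lay on chromosome 9 (chr9:134333225-137525931) and included that of the retinoid receptor gene RXRA. Groups of 8 clusters included CELSR2 on chromosome 1 and DUSP1 with STC2 on chromosome 5.

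Motifs were searched by their letters on both strands within 100 bp of the midpoint of each region, since the peak lists gave no summits. In wide regions the midpoint need not be the most open base. The letters searched were TGACTCA for AP-1, whose complement reads TGAGTCA, for FOX factors TGTTTAC or TGTTTGC, and GCCNNNGGC for AP-2 factors, AGATAA for factors of the GATA family, CCGGAAG for ETS factors and AACCGG for grainyhead factors. The full estrogen response element, an inverted repeat spaced by 3 bases, and the core of the CTCF motif were also searched. CATTAGC, which is none of these 8 motifs, served as a control. Whether other factors bind it was not examined, so it is not a neutral background. The ETS and grainyhead letters can overlap in CCGG. At least 1 of the 8 motifs was found in 34.8% of the regions in clusters (95% Wilson interval 33.6 to 35.9%), against 40.1% of all distal regions. The intervals cover counting error only, and regions are not replicates.

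Of the motifs searched, CTCF had the ratio of shares farthest from 1. Its core was found in 42 of the 6353 regions in clusters, or 0.661% (0.489 to 0.892%), against 2.55% of all distal regions and 2.64% of those outside clusters. It was similarly scarce in regions of at most 500 bp with a GC content of 45 to 55%, a range chosen after the data were seen, at 0.638% (0.336 to 1.21%) against 2.90% (2.76 to 3.06%). The ratio of the shares was 0.250, and it stayed between 0.147 and 0.372 in 12 other settings. Distal regions outside the clusters but within 50 kb of one also held it less often than those farther away, at 1.24% (0.983 to 1.56%) against 2.70% (2.62 to 2.79%). Counted over whole regions, 102 of the 500 clusters held a match, and the most was 3, in the GSE1 cluster of rank 493. A missing match says only that these letters are not in the window.

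The other motifs differed less, and most of their differences shrank among regions of like width and GC. In that narrow range, the intervals of clusters and other regions overlapped for each of them. The width limit of 500 bp alone did little for the 4 commoner motifs. The ratio of shares, clusters to other distal regions, was then 1.30 for AP-2, 0.647 for FOX, 0.632 for GATA and 0.832 for AP-1. For all widths it was 1.30, 0.660, 0.702 and 0.817. The ratios of ETS and grainyhead fell from 1.44 and 1.18 to 1.29 and 1.08. AP-2 was found in 13.0% of regions in clusters (12.2 to 13.9%) against 10.1% of all distal regions. Among regions of at most 500 bp and 45 to 55% GC, it was found in 9.14% (7.75 to 10.8%) against 10.1% (9.80 to 10.3%), which turned the order within counting error. FOX was found in 8.75% (8.08 to 9.47%) against 13.1%, and in the same narrow range in 9.78% against 10.9%. GATA was found in 7.51% (6.89 to 8.18%) against 10.6%, and in the narrow range in 7.30% against 8.06%. For AP-1 the shares were 6.78% (6.19 to 7.43%) and 8.24%, and in the narrow range 8.01% and 8.83%. Among the rarer motifs, ETS was found in 1.32% (1.07 to 1.63%) against 0.938%, and in the narrow range in 1.13% against 0.897%. Grainyhead was found in 2.17% (1.84 to 2.56%) against 1.85%. In the narrow range it was found in 1.84% (1.26 to 2.69%) against 1.91% (1.79 to 2.03%), so its order turned too, again within counting error. The full estrogen response element was found in 5 regions or 0.0787% (0.0336 to 0.184%) against 0.0739%, and in the narrow range in 0 of 1411 regions (upper Wilson limit 0.272%) against 0.0598%, too few to order. The control letters too were less frequent in clusters, with 1.32% (1.07 to 1.63%) against 1.88%, and in the narrow range with 1.70% against 1.93%.

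Over whole regions, a cluster held a median of 6 AP-2, 4 GATA, 3 AP-1 and 3 FOX matches, and 500 of 500 held at least 1 match to one of the 8 motifs. Such counts grow with the width by which the clusters were chosen. Per kb of region, the clusters held 1.92 matches to the 8 motifs, against 2.23 in other distal regions. The most AP-1 matches, 14, were in the cluster of rank 74 at BHLHE40, which encodes a circadian repressor. The most FOX matches, 17, were in the leading cluster of BCAR3, followed by 14 in the TRPS1 cluster of rank 34 and 13 in that of IER5. A full estrogen response element was found in 17 clusters and never more than once.

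**Figure D5:**
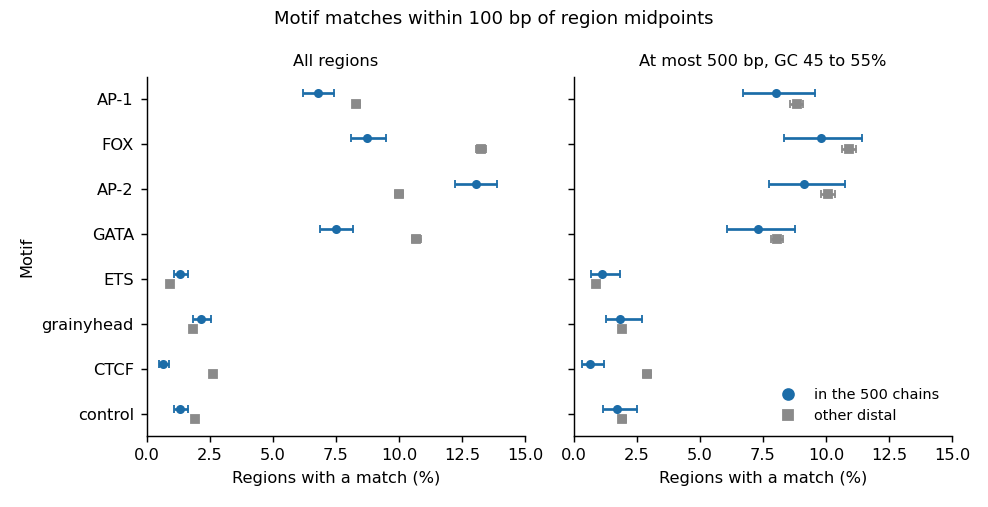
Share of regions (%) with a motif within 100 bp of the midpoint, in the 500 clusters (blue circles) and in other distal regions (grey squares), with 95% Wilson intervals, for regions of all widths (left) and those of at most 500 bp with 45 to 55% GC (right). CTCF lies apart in both panels, at 0.661% against 2.64% and 0.638% against 2.90%, while the other gaps plotted are narrower on the right.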

How the data were processed

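ATAC-seq peaks of 2 biological replicates of CAMA-1 were analysed. Per the submitters' processing notes, the reads were processed with Trim Galore 0.6.5, Bowtie2 2.3.5.1 and MACS2 2.2.6 on hg38. The MACS2 settings were not given in the sources used here. For each peak the authors deposited a score, −log10 p-values and −log10 q-values, and a fold enrichment, which is a ratio to background. The fold and the −log10 q were used here. The lists held 245736 peaks in replicate 1 and 259745 in replicate 2. They give no reads, so the depth behind a peak is unknown.

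Overlapping peaks of both replicates were merged, and the regions were filtered, chained and ranked as described above, with genes from GENCODE release 44. A region took the highest fold of its peaks. A cluster was named by the protein-coding gene with the nearest TSS, any annotated TSS of the gene counting. The text names the genes of the 20 widest clusters, the 5 genes nearest to most clusters (with ties), list genes nearest to a cluster, the 5 clusters with the highest peaks and those beside the limit. ESR1, FOXA1, BHLHE40 and the genes of the groups of clusters were named after their values were seen. Members and lists were chosen with earlier results of these data known. Windows with an exon of a protein-coding gene were passed over for printed sequences, a choice added after the files were seen. With 1 condition and members chosen by the same peaks, no test was made. Wilson intervals cover counting error only. The alternatives changed the linking distance, the distance to TSSs, the TSSs counted, the least −log10 q, the overlap, the ranking, the motif window and the replicates. The chaining functions were tested on simulated data. Computation used scipy 1.17.1, numpy 2.4.6 and, for plots, matplotlib 3.10.9 under Python 3.11.15.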

Additional observations from a re-analysis of the deposited data

Results flagged for a closer look

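Chromosome X was outside the selection, yet it carried 5 chains at least as wide as the cluster of rank 500, out of 2909 chains with 4110 distal regions. They were nearest to TSC22D3, BCOR, SLC25A6, TMEM164 and NHSL2. The widest, at TSC22D3, held 12 regions and 7780 bp, with a highest fold enrichment of 57.5 in replicate 1 and 56.8 in replicate 2. No control sample was at hand to set a background.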

How the results depend on the processing

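No paired analysis was possible because only one group of samples exists. The selection depended on how chains were built. With edges at most 2 kb apart, the 500 clusters held 3626 regions with a median summed width of 6.29 kb, a fold ratio to other distal regions of 1.26 and 32.5% of regions with a motif, and 305 of the 500 were met again. With 10 kb they held 11196 regions, 13.3 kb and a ratio of 1.05. With a TSS distance of 1 kb the width was 12.9 kb, the ratio 1.04 and the motif share 33.0%, and 325 clusters were met again. Counting protein-coding TSSs only gave 10.6 kb, and leaving out regions over a TSS, a choice made after seeing the data, 8.86 kb. A −log10 q of at least 10 gave 7.41 kb and a ratio of 1.46, and a reciprocal overlap of 50% gave 7.89 kb and 1.25. Ranking by the number of regions gave 8.19 kb and a ratio of 1.00, with 6 estrogen-induced and 1 epithelial gene nearest to a cluster. Ranking by span gave 7.82 kb and 1.03, with 5 and 1 of these genes, and met 308 clusters again. Chains built from 1 replicate gave widths of 8.65 to 8.93 kb and ratios of 1 to 1.06, and met 449 to 461 clusters again. A motif window of 50 bp on each side lowered the motif share to 20.1%. Regions of at most 500 bp, chosen after seeing the data, turned the fold ratio to 0.822. The causes were not tested. Of 112 values under other settings, 80 stayed within 1.5 times the reported count, within 1 SD of the replicates for the width and the fold ratio, or within the 95% interval for the motif share. The numbers of clusters over gene bodies, of nearest genes and of luminal factors stayed within 1.5 times in each setting in which they were computed. The order of the shares turned in some settings for the estrogen response element (5 of 12) and grainyhead (1 of 12), and in none of these 12 for the other motifs. In regions of at most 500 bp with 45 to 55% GC, which are not among the 12, the order turned for AP-2 and grainyhead, both within overlapping intervals. The estrogen response element had too few matches there to order.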
